A study of Marchantia polymorpha with 12 samples.

Results

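A set of 46 genes of the liverwort Marchantia polymorpha fell at least 2-fold after wounding in the wild-type strain Tak-1 and had a smaller fall in a double mutant of fatty acid desaturase genes. The set was chosen on the measured values. Counts were divided by the library total and scaled to CPM, counts per 1000000, and a level was log2 of the group mean CPM plus 0.5. The response of a genotype is its wounded level minus its mock level, so that a negative response is a fall. A gene entered the set if its Tak-1 response was -1 or lower, its mutant response was higher than its Tak-1 response by 0.75 or more, its mean in mock Tak-1 was 5 CPM or more, and its mock levels in the 2 genotypes lay within 1 log2 unit. Of 20574 gene IDs, 506 met the conditions on the fall in Tak-1, the level and the mock difference, and 46 of these (9.09%) also had the required difference of responses. The other 460 fell in Tak-1 by the same conditions and are the group with which the set is compared.

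The study sequenced RNA of 12 libraries, 3 in each of 4 groups: Tak-1 left unwounded (mock), Tak-1 after wounding, and Mpfad3fad7 under both conditions. Tak-1 is a male wild-type strain, and Mpfad3fad7 is a double mutant named for a pair of fatty acid desaturase genes. The growth protocol in the labels names the double mutant Mpdes6fad5 instead, and the labels do not say whether it is 1 line or several, nor how its alleles were made. Plants of all groups were cultured for 3 weeks on agar, wounding was done with tweezers, and tissue was frozen 2 h later, with mock samples carrying the same time in their labels. Each replicate was a separate pool of 6 to 8 plants, so single plants are not resolved. The labels call the tissue leaflets, while the growth protocol describes fragments from the apex without gemma cups. The sources used here give no agent or chemical beyond the wounding.

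As background, omega-3 desaturases introduce a double bond into membrane fatty acids and so supply the trienoic and longer polyunsaturated acids from which plants make jasmonates. In Marchantia the bioactive jasmonate is dinor-OPDA, which is perceived by the COI1 receptor and releases the response from JAZ repressors. Wounding raises jasmonate levels and changes the expression of many genes in land plants, with defence genes rising and many genes of growth and of the cell wall falling. Class III peroxidases, the largest named family in the set, are secreted haem enzymes that use hydrogen peroxide to oxidise phenolic compounds, and in flowering plants they cross-link or loosen the cell wall.

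Totals ran from 19121900 to 30821817 counts per library. Every pair of replicates differed by more than counting noise (chi-square per degree of freedom 8.27 to 27.5). A pair of wounded mutant columns carried the same name, so these libraries have no number here and are called A and B. The transcripts of MpFAD3, MpFAD5, MpDES6 and the gene with the synonym MpFAD7 were present in all libraries of both genotypes (lowest value 28.1 CPM), so transcript levels give no check of the mutant label. Values of single libraries are given in the order 1, 2, 3, and for the wounded mutant in the order 1, A, B. CPM are not scaled by transcript length, so levels are compared between groups and not between genes. In bulk tissue, fewer cells of a type and less RNA per cell cannot be told apart.

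Across the set, the median response was -1.48 in Tak-1 (range -2.48 to -1.02) and -0.43 in the mutant (range -1.71 to 0.05) on the log2 scale. Wounded Tak-1 kept a median of 33.7% of its mock CPM (range 14.0 to 48.2%), and the wounded mutant kept 72.4% of its own (range 28.7 to 103%). The median difference of responses was 0.95 (range 0.75 to 1.59). Over all 13726 genes tested, the median responses were -0.12 for Tak-1 and -0.01 for the mutant, with a median difference of 0.09. Among the 460 other genes that fell in Tak-1, the median responses were -1.24 and -1.03 and the median difference was 0.23. These values were used to choose the set or follow from the choice, and they are given as a description. Outside the set the difference was above 0 in 392 of the 460 other genes (85.2%), where 65.3% of all tested genes were, and in 342 (74.3%) when libraries were scaled by TMM instead of by their totals, where 48.7% of all tested genes were. The 460 were picked on a low Tak-1 response, which enters the difference, so nothing is read from their share.

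**Figure D1:**
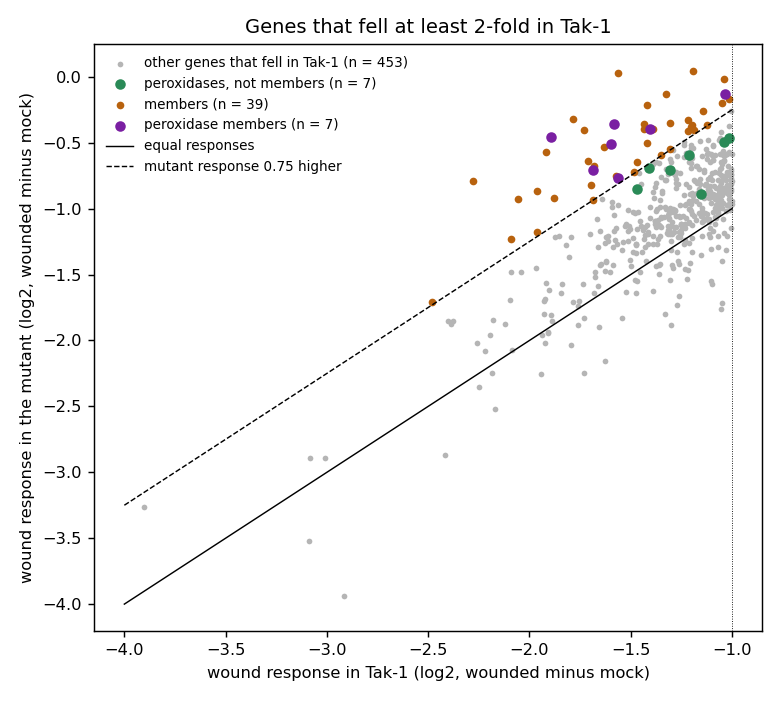
Response to wounding in Tak-1 (x axis) and in the mutant (y axis), as wounded minus mock log2(mean CPM + 0.5), for the 506 genes that fell in Tak-1 by the conditions of the rule. The 46 members lie above the other 460 genes because the rule chose them so, and most lie between a mutant response of -1 and 0.

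In most members the mutant response was smaller than that of Tak-1 but still negative. The mutant response was between -1 and 0 in 41 members, at or under -1 in 3 and above 0 in 2 (Mp8g11990 and MpCAT4). Under TMM scaling 3 members were above 0, and under upper-quartile scaling 0. The 3 members that also fell at least 2-fold in the mutant were Mp3g14120, MpPL1.3 and Mp2g10000, with mutant responses of -1.71, -1.23 and -1.18. Only 4 members had a Tak-1 response of -2 or lower, and 20 had a difference of responses of 1 or more. In all, 34 members had a mock Tak-1 mean under 20 CPM, 18 of them under 10 CPM, and 8 members were above 50 CPM. The median of these means was 11.6 CPM in the set and 55.0 CPM in the other 460 fallen genes. It was 24.7 CPM in all tested genes, so the set and its comparison group differ in level.

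A difference of responses has a mock part and a wounded part. In mock plants the mutant was lower than Tak-1 in 32 members and higher in 14, with a median difference of -0.16 (range -0.85 to 0.50). It was lower in 218 of the other 460 fallen genes and in 8164 of all 13726 tested genes. In 25 members the mock genotypes lay within 0.25. In wounded plants the mutant was higher in 45 of 46 members, with a median difference of 0.87, Mp8g16670 being level at 0.00. It was higher in 377 of the other 460 fallen genes and in 8212 of all tested genes. The wounded difference is the sum of the mock difference and the difference of responses. The rule therefore fixed it in part, and nothing is read from these counts. The wounded part was larger than the mock part in 36 members and smaller in 10. For those 10 a lower starting level in the mutant made up most of the difference. MpPOD138 was among them, with a mock difference of -0.73 and a wounded difference of 0.17.

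**Figure D2:**
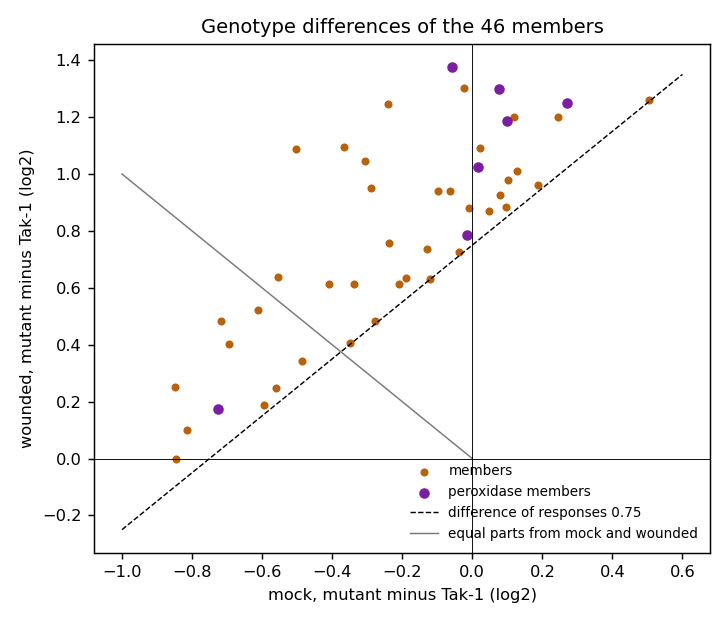
Mutant minus Tak-1 in mock plants (x axis) and in wounded plants (y axis), in log2(mean CPM + 0.5), for the 46 members, with the 7 peroxidases marked. All members but Mp8g16670 lie above 0 on the y axis, while mock differences run from -0.85 to 0.50 on both sides of 0. The y value is the x value plus the difference of responses, so the rule fixed it in part.

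Counts of calls are given beside the share of all tested genes called in the same direction, and since the rule used every one of these contrasts, nothing is read from them. By edgeR's quasi-likelihood test (Benjamini-Hochberg adjusted p under 0.05 over 13726 genes), 45 members were called lower after wounding in Tak-1, where 25.0% of all tested genes were, Mp5g19810 being the exception. In the mutant, 17 members were called lower, where 22.6% of all tested genes were, and 29 were not called. The difference of responses was called higher in 9 members, where 0.692% of all tested genes were, and lower in 0, where 2.59% were. In the mock comparison of genotypes, 1 member, Mp1g06380, was called higher in the mutant and 0 lower, where 2.00% and 2.51% of all genes were. After wounding 24 members were called higher in the mutant and 0 lower, where 5.03% and 9.51% of all genes were. At an unadjusted p under 0.05, 10 members (where 18.7% of all genes did) passed in mock plants and 34 (where 28.3% did) in wounded plants, in either direction.

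The 9 members called in the difference of responses were Mp1g29040, Mp3g16340, MpFRO2, MpPOD92, Mp5g16810, MpPOD121, Mp5g23390, Mp7g06170 and Mp7g10400. The other members met the rule on their means without passing this test. At an unadjusted p under 0.05 the count was 35, where 15.3% of all tested genes passed in either direction, and DESeq2 called 19 higher, where 1.53% of all genes were. Leaving out 1 library at a time gave 6 to 14 members called, with 0.288 to 1.08% of all tested genes called higher in these fits. The count was 6 without mock Tak-1 library 1 or 3, without mock mutant library 2, or without wounded mutant library 1. It was 14 without mock Tak-1 library 2.

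Library by library, all 3 wounded Tak-1 libraries lay below all 3 mock Tak-1 libraries in 45 members, where 38.8% of all tested genes showed this. In the mutant the same held for 23 members, where 29.7% of all genes did. All 3 wounded mutant libraries lay above all 3 wounded Tak-1 libraries in 30 members, where 19.6% of all genes did. In 30 members the wounded Tak-1 libraries were below all 9 other libraries, where 11.0% of all genes were. Mock mutant libraries lay below mock Tak-1 libraries in every pair in 12 members, where 18.2% of all genes did. The rule used the means of all 4 groups and limited the mock difference, so nothing is read from these counts.

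**Figure D3:**
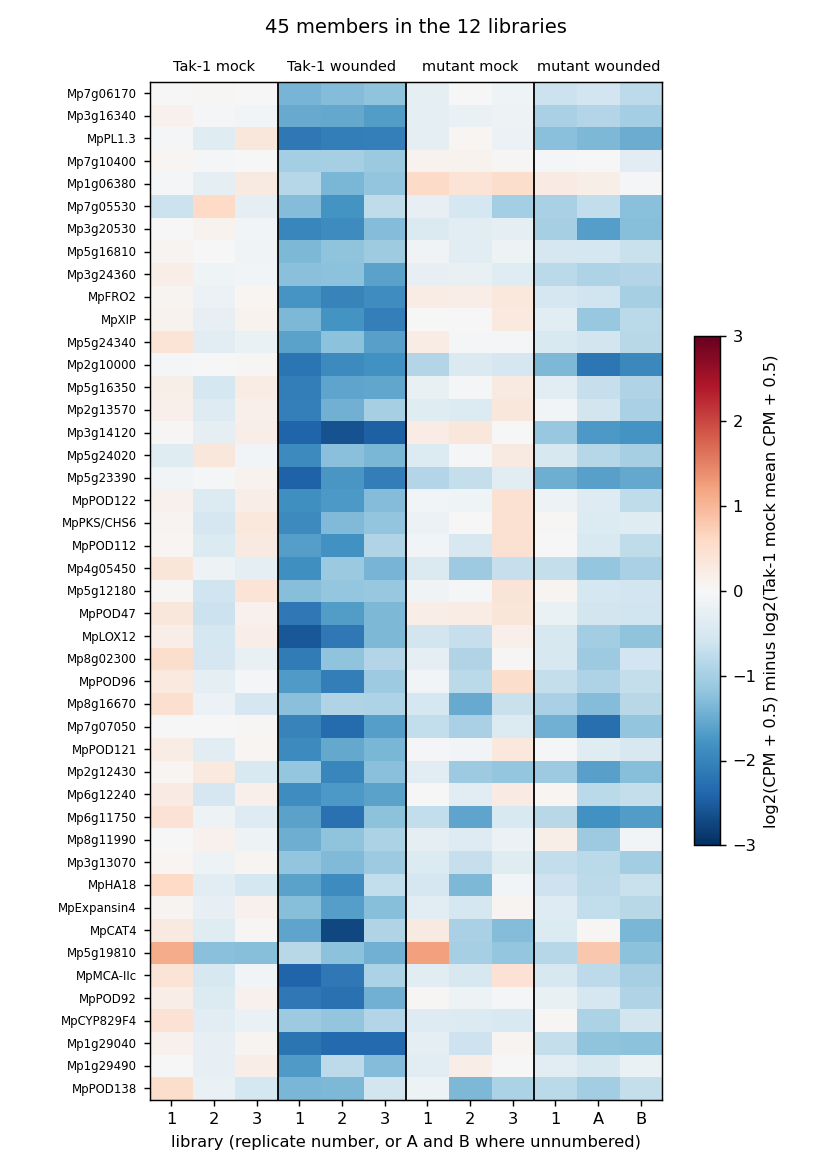
Heat map of 45 of the 46 members (rows) in the 12 libraries (columns, grouped by genotype and treatment), coloured by log2(CPM + 0.5) relative to the gene's level in mock Tak-1. The wounded Tak-1 libraries are the lowest in most rows, and wounded mutant library 1 is closer to mock than libraries A and B in most rows.

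Class III peroxidases formed the largest named group, with 7 of the 46 members (15.2%). Peroxidases made up 1.52% of the other 460 fallen genes and 0.809% of all tested genes. Of 14 peroxidases that met the other conditions, 7 were members, against 46 of all 506 fallen genes. The members were MpPOD47, MpPOD92, MpPOD96, MpPOD112, MpPOD121, MpPOD122 and MpPOD138, and their differences of responses ran from 0.80 to 1.43. Symbols were more frequent in the set (37.0%) than among the other fallen genes (27.6%) or all tested genes (18.5%).

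MpPOD92 (Mp5g10750) had the largest difference of responses among the peroxidases, with 7.58, 4.79 and 7.20 CPM in mock Tak-1 and 1.09, 0.991 and 2.10 CPM after wounding, and 6.65, 5.86 and 6.23 CPM in the mock mutant and 5.54, 4.45 and 3.24 CPM in the wounded mutant. All wounded Tak-1 libraries were below all 9 others, and the mock groups overlapped. Its Tak-1 response was -1.89 ± 0.32 and its mutant response -0.46 ± 0.20 (log2 scale, SE from 3 libraries a group), a difference of 1.43 ± 0.38. For MpPOD121 (Mp5g17250) the libraries held 11.5, 7.66 and 10.3 CPM in mock Tak-1 and 2.27, 3.09 and 3.50 CPM after wounding, and 9.55, 9.31 and 12.4 CPM in the mock mutant and 9.59, 7.49 and 6.94 CPM in the wounded mutant. The mock groups overlapped, the wounded mutant overlapped its own mock group, and wounded Tak-1 was the lowest group. Tak-1 kept 30.01% of its mock mean and the mutant 76.9%, with a difference of responses of 1.22 ± 0.29. Its neighbour MpPOD122 (Mp5g17260) held 15.2, 10.4 and 16.1 CPM in mock Tak-1 and 3.56, 3.88 and 5.34 CPM after wounding, and 13.1, 12.6 and 19.2 CPM in the mock mutant and 12.5, 10.5 and 8.02 CPM in the wounded mutant. Wounded Tak-1 was again the lowest group, and the mutant groups narrowly did not overlap. The responses were -1.60 ± 0.24 and -0.51 ± 0.26.

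MpPOD112 (Mp5g17030) held 13.5, 9.53 and 15.7 CPM in mock Tak-1 and 3.73, 3.33 and 6.61 CPM after wounding, and 12.2, 9.05 and 17.9 CPM in the mock mutant and 12.7, 9.25 and 7.43 CPM in the wounded mutant. Wounded Tak-1 was below every other library, but the wounded and mock mutant libraries overlapped. Its responses were -1.41 ± 0.35 in Tak-1 and -0.40 ± 0.35 in the mutant. MpPOD47 (Mp4g14270) held 14.5, 7.16 and 12.6 CPM in mock Tak-1 and 2.21, 3.21 and 4.16 CPM after wounding, and 13.2, 13.5 and 14.9 CPM in the mock mutant and 9.80, 7.68 and 7.36 CPM in the wounded mutant. The mutant groups did not overlap here, and mock mutant libraries were closer to each other than mock Tak-1 libraries were. Tak-1 kept 28.01% and the mutant 59.7% of the mock mean, with a difference of responses of 0.98 ± 0.37.

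MpPOD96 (Mp5g12140) held 13.5, 8.82 and 10.4 CPM in mock Tak-1 and 3.00, 2.22 and 4.86 CPM after wounding, and 10.3, 6.01 and 16.02 CPM in the mock mutant and 6.45, 5.53 and 6.45 CPM in the wounded mutant. The mock mutant libraries spread widely, and library 2 lay below wounded mutant libraries 1 and B. The difference of responses was 0.80 ± 0.51, near the limit of the rule. MpPOD138 (Mp6g13550) held 7.95, 4.64 and 3.601 CPM in mock Tak-1 and 1.78, 1.82 and 3.54 CPM after wounding, and 4.82, 1.83 and 2.54 CPM in the mock mutant and 2.84, 2.35 and 3.07 CPM in the wounded mutant. Wounded libraries of the genotypes overlapped, and the mock mutant libraries were mostly below those of Tak-1. Its responses were -1.03 ± 0.43 and -0.13 ± 0.38, so that a difference of 0.90 ± 0.57 came with a mutant that started lower.

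**Figure D4:**
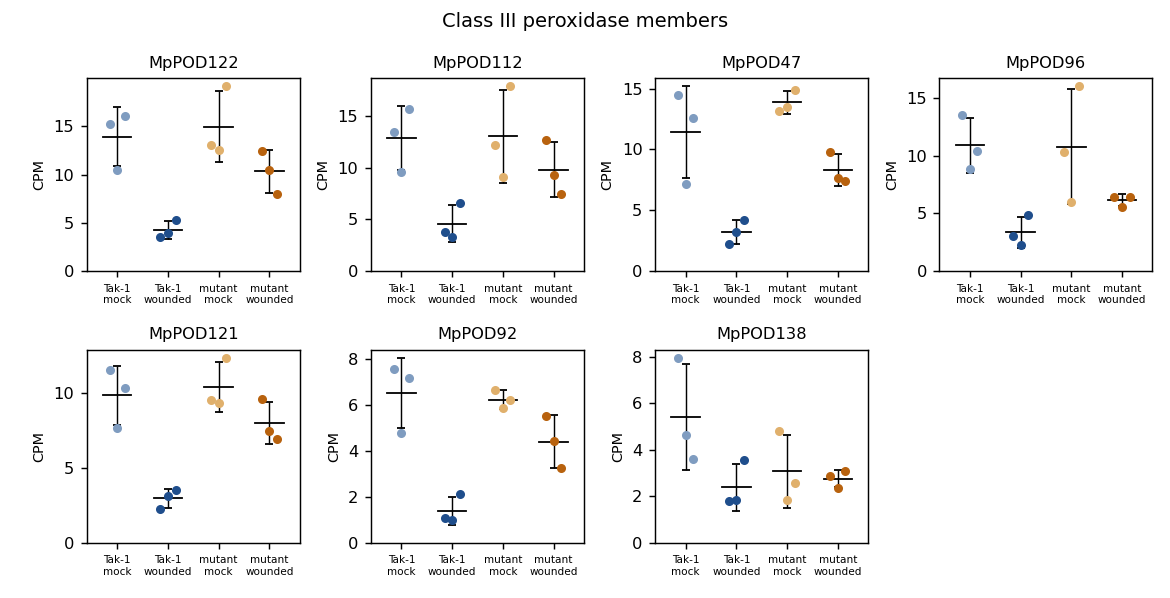
CPM of the 7 peroxidase members in each library (points) with the mean and SD of each group (bars), for both treatments of both genotypes. In 6 of the 7 genes the wounded Tak-1 libraries lie below all others, MpPOD138 being the exception.

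Outside the set, 81 of the 104 other tested peroxidases (77.9%) had a difference of responses above 0, where 65.3% of all tested genes did, and 74 (71.2%) under TMM scaling, where 48.7% of all tested genes did. The 7 others that met the remaining conditions (MpPOD48, MpPOD51, MpPOD80, MpPOD98, MpPOD129, MpPOD154 and MpPOD155) had differences of responses from 0.27 to 0.72, with a median of 0.60. Of 164 peroxidases with a symbol, 111 were tested, and 48 were called lower and 13 higher after wounding in Tak-1, against 25.0% and 30.0% of all tested genes. In the mutant 13 were called lower and 13 higher, against 22.6% and 28.6% of all tested genes. Of the 48 that fell in Tak-1, 41 were not members, and 35 of these (85.4%) had a difference above 0, with a median of 0.61 (34 under TMM scaling, with a median of 0.55). Among all 3382 genes outside the set that were called lower in Tak-1, the difference was above 0 in 83.9%, with a median of 0.17 (66.3% and 0.07 under TMM scaling). The Tak-1 response that picked these genes enters the difference, and the shares and medians were not compared by a test.

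The difference of responses itself was called higher in 6 tested peroxidases and lower in 0, where 0.692% and 2.59% of all tested genes were. Of the 6, 2 were members. The other 4 were MpPOD23, MpPOD61, MpPOD116 and MpPOD156. MpPOD116 had a difference of 1.79 ± 0.44 (edgeR adjusted p = 0.0152) at a mock Tak-1 mean of 1.59 CPM and 3 or 4 counts in each wounded Tak-1 library, and it remained called without any 1 of the 12 libraries (adjusted p 0.00672 to 0.0463). MpPOD156 had a mutant response of 1.06 and a Tak-1 response of 0.26, a difference of 0.80 ± 0.16 (edgeR adjusted p = 0.0211), and this was lost in 5 of 12 fits without 1 library: without mock Tak-1 library 1 or 3, wounded Tak-1 library 1, or wounded mutant library 1 or A. MpPOD23 had a difference of 0.42 ± 0.05 (edgeR adjusted p = 0.0433) that was kept only without wounded Tak-1 library 2. MpPOD61 differed by 1.71 ± 0.61 (edgeR adjusted p = 0.0488) with 2 or 3 counts in each wounded Tak-1 library, and it was kept only without mock mutant library 3 or wounded mutant library B.

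Gene order in the reference table of assembly MpTak2_v7.1 placed several members close together. MpPOD121 and MpPOD122 are adjacent, with 0 genes between them, and MpPOD112 lies 13 genes from MpPOD121. This stretch, from Mp5g17030 to Mp5g17260, holds 16 genes, of which 10 are peroxidases and 9 of those were tested. Its ends are members, and 3 of the 9 are in the set. The 6 tested peroxidases of the stretch outside the set had a median difference of 0.86 (0.01 to 1.79), and 6 of 6 were above 0, but only 5 under TMM and upper-quartile scaling, where MpPOD118 turned below 0. Of these 6, MpPOD114 (1.02 ± 0.42) and MpPOD115 (0.75 ± 0.44) came close to the rule, while MpPOD118 (0.01 ± 0.39) did not differ beyond its SE. Neighbouring peroxidases may be similar copies, and how reads shared by such copies were counted is not given in the sources used here, so single members of the stretch are uncertain. MpPOD96 and the unnamed member Mp5g12180 have 3 genes between them. By the chromosome in the gene ID, 14 members (30.4%) are on chromosome 5, against 11.7% of the other fallen genes and 12.2% of all tested genes.

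Cell wall enzymes gave 2 members. MpPL1.3 (Mp3g01000), named as a pectate lyase, an enzyme that cleaves pectin, held 129, 104 and 169 CPM in mock Tak-1 and 30.1, 31.2 and 31.8 CPM after wounding, and 109, 139.9 and 119 CPM in the mock mutant and 56.3, 52.3 and 47.5 CPM in the wounded mutant. Both genotypes fell without overlap, and the wounded mutant libraries were all above the wounded Tak-1 libraries. Its Tak-1 response was -2.09 ± 0.20 and its mutant response -1.23 ± 0.13. MpExpansin4 (Mp1g22730), of the expansins that loosen cell walls, held 7.58, 5.85 and 7.79 CPM in mock Tak-1 and 2.64, 1.90 and 2.62 CPM after wounding, and 5.53, 4.76 and 7.46 CPM in the mock mutant and 5.32, 4.06 and 3.77 CPM in the wounded mutant. Wounded Tak-1 was the lowest group, and the mutant groups overlapped. Tak-1 kept 33.8% and the mutant 74.1% of the mock mean. Of 26 tested expansins, 13 were called lower and 2 higher in Tak-1, against 25.0% and 30.0% of all tested genes. In the mutant 10 were called lower, against 22.6%. In the difference of responses 0 were called higher, where 0.692% of all tested genes were. The 2 expansins called lower, where 2.59% of all tested genes were, had the direction opposite to MpExpansin4. These were MpExpansin16 (-0.84 ± 0.20, edgeR adjusted p = 0.00723) and MpExpansin28 (-0.60 ± 0.17, edgeR adjusted p = 0.0353), which both rose in Tak-1. The other expansins that met the remaining conditions of the rule, MpExpansin6, MpExpansin32 and MpExpansin38, had differences of 0.51 ± 0.22, 0.22 ± 0.21 and 0.09 ± 0.40.

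MpFRO2, MpXIP and MpHA18 carry names of membrane protein families. MpFRO2 (Mp3g20260), named as a ferric reductase oxidase, which reduces iron at the cell surface in flowering plants, held 34.1, 28.4 and 33.7 CPM in mock Tak-1 and 9.03, 7.69 and 8.40 CPM after wounding, and 37.3, 36.9 and 40.3 CPM in the mock mutant and 22.7, 21.1 and 15.9 CPM in the wounded mutant. No groups overlapped, and the mock mutant libraries were all above those of mock Tak-1. Its responses were -1.88 ± 0.10 and -0.92 ± 0.15 with a difference of 0.95 ± 0.18. The related MpFRO1, which also fell by the conditions of the rule, had a Tak-1 response of -1.54 ± 0.06 and a mutant response of -1.83 ± 0.15, a difference in the opposite direction (-0.29 ± 0.17) that did not pass the test (edgeR adjusted p = 0.225).

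MpXIP (Mp3g14380), of a subfamily of the aquaporin-like membrane channels, held 26.4, 20.5 and 26.4 CPM in mock Tak-1 and 9.33, 6.74 and 5.51 CPM after wounding, and 24.6, 24.2 and 29.8 CPM in the mock mutant and 19.3, 10.9 and 13.8 CPM in the wounded mutant. Wounded mutant library 1 stood well above libraries A and B, and all 3 were above wounded Tak-1. The responses were -1.69 ± 0.24 and -0.82 ± 0.25. MpHA18 (Mp3g12400), of the plasma membrane proton pumps, held 11.8, 5.90 and 5.16 CPM in mock Tak-1 and 2.18, 1.70 and 4.33 CPM after wounding, and 5.21, 2.67 and 7.16 CPM in the mock mutant and 4.81, 4.21 and 4.60 CPM in the wounded mutant. The wounded groups overlapped, since wounded Tak-1 library 3 exceeded wounded mutant library A. Its difference of responses, 1.19 ± 0.62, was less than 2 SE from 0. Of the other pumps, MpHA13 and MpHA14 met the other conditions of the rule, with differences of 0.53 ± 0.67 and 0.42 ± 0.16. MpHA14 is the gene next to MpHA18 in ID order and held 248 ± 14.1 CPM (SD, n = 3) in mock Tak-1. How reads shared by such copies were counted is not known here.

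A lipoxygenase, a polyketide synthase and a P450 enzyme were also members. MpLOX12 (Mp8g01650) is a lipoxygenase, of the family that adds oxygen to polyunsaturated fatty acids and so begins jasmonate synthesis, and it held 13.0, 7.66 and 12.9 CPM in mock Tak-1 and 1.52, 2.14 and 4.11 CPM after wounding, and 7.52, 6.75 and 12.6 CPM in the mock mutant and 7.95, 5.14 and 4.53 CPM in the wounded mutant. The mock mutant and wounded mutant overlapped, and wounded Tak-1 was the lowest group without overlap. The responses were -1.92 ± 0.43 and -0.57 ± 0.37. Of 15 tested lipoxygenases, 3 were called lower and 7 higher in Tak-1, where 25.0% and 30.0% of all tested genes were. In the difference of responses 3 were called lower and 0 higher, where 2.59% and 0.692% of all tested genes were. These 3 were MpLOX2, MpLOX14 and MpLOX4, with differences of -0.82 ± 0.14 (edgeR adjusted p = 0.00408), -0.89 ± 0.15 (edgeR adjusted p = 0.00183) and -1.51 ± 0.43 (edgeR adjusted p = 0.0429). The calls of MpLOX2 and MpLOX14 held without any 1 library, while that of MpLOX4 held only without mock Tak-1 library 3, wounded Tak-1 library 1 or wounded mutant library B. MpLOX16 was the only other lipoxygenase that met the remaining conditions of the rule, at 42.2 CPM in mock Tak-1. Its responses were -1.79 ± 0.29 and -2.03 ± 0.40, a difference in the opposite direction (-0.24 ± 0.49) that did not pass the test (edgeR adjusted p = 0.763). MpLOX13 had responses close to those of MpLOX12 (-1.65 and -0.68) but lay under the level limit of the rule, at 3.81 CPM in mock Tak-1.

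MpPKS/CHS6 (Mp2g22700), of the polyketide and chalcone synthases that build phenolic compounds such as flavonoids, held 13.8, 9.13 and 16.3 CPM in mock Tak-1 and 3.13, 4.95 and 5.47 CPM after wounding, and 11.5, 13.0 and 18.3 CPM in the mock mutant and 13.3, 9.64 and 10.1 CPM in the wounded mutant. Wounded mutant libraries lay within the range of mock Tak-1. Libraries A and B were below all mock mutant libraries, and only library 1 lay among them. The responses were -1.44 ± 0.30 and -0.36 ± 0.25. In that family of 24 tested genes, 5 were called lower and 11 higher in Tak-1, where 25.0% and 30.0% of all tested genes were. In the mutant 1 was called lower and 10 higher, where 22.6% and 28.6% were. In the difference of responses 0 were called lower and 1 higher, where 2.59% and 0.692% were. MpCYP829F4 (Mp5g21950), a cytochrome P450 enzyme, held 8.27, 4.64 and 5.16 CPM in mock Tak-1 and 2.57, 2.38 and 3.06 CPM after wounding, and 4.50, 4.45 and 4.28 CPM in the mock mutant and 6.20, 2.89 and 3.98 CPM in the wounded mutant. The wounded mutant overlapped both wounded Tak-1 and its own mock group. Its mutant response was -0.02 ± 0.29 and its Tak-1 response -1.04 ± 0.27. Of 23 tested CYP829 genes, 8 were called lower and 3 higher in Tak-1, and 5 lower and 5 higher in the mutant. In the difference of responses 1 was called lower and 0 higher. The shares of all tested genes are those given for the polyketide synthases.

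MpMCA-IIc (Mp8g07700), a type II metacaspase, a protease tied in flowering plants to damage and cell death, held 9.003, 4.59 and 6.26 CPM in mock Tak-1 and 0.857, 1.11 and 3.19 CPM after wounding, and 5.17, 4.60 and 9.15 CPM in the mock mutant and 4.59, 3.62 and 3.07 CPM in the wounded mutant. Wounded Tak-1 library 3 was 2.88 times the next library of its group and overlapped the wounded mutant. The responses were -1.68 ± 0.55 and -0.68 ± 0.34. MpCAT4 (Mp5g07320) had the largest difference of responses of the set, 1.59 ± 0.81, and the libraries behind it scattered, with 8.59, 5.34 and 7.27 CPM in mock Tak-1 and 2.01, 0.634 and 3.54 CPM after wounding, and 8.60, 3.35 and 2.58 CPM in the mock mutant and 5.18, 7.24 and 2.44 CPM in the wounded mutant. The mutant libraries were not separated by treatment, and 3 of the 4 groups had a library more than 2-fold from the next.

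**Figure D5:**
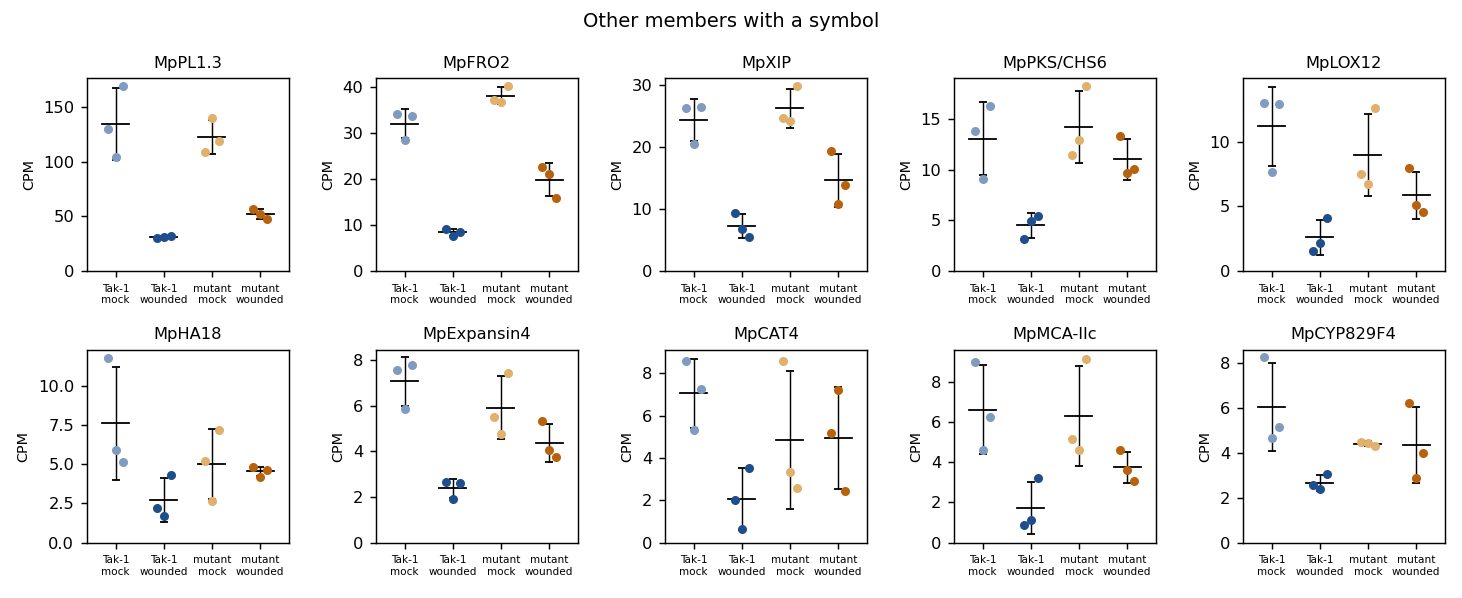
CPM of the other 10 named members in each library (points) with the mean and SD of each group (bars). Wounded Tak-1 is the lowest group mean in all 10 genes, and in MpCAT4 the libraries of the mutant overlap between treatments.

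Of the 46 members, 29 had no symbol, and 4 of the 46 IDs were not in the reference table, so their functions are not described. Of the 4 members with the highest mock Tak-1 CPM, 3 were unnamed (Mp7g06170, Mp3g16340 and Mp7g10400), and their differences of responses had the smallest SEs of the set. Mp7g06170 held 949, 976 and 942 CPM in mock Tak-1 and 362, 386 and 411 CPM after wounding, and 795, 961 and 877 CPM in the mock mutant and 606, 639 and 552 CPM in the wounded mutant. Each group was separate from every other except the mock groups, which overlapped. Its responses were -1.30 ± 0.06 and -0.55 ± 0.10, with a difference of 0.75 ± 0.11. Mp3g16340 held 975, 845 and 837 CPM in mock Tak-1 and 311, 305 and 277 CPM after wounding, and 731, 774 and 795 CPM in the mock mutant and 450.1, 481 and 435 CPM in the wounded mutant. Here the mock mutant libraries were all below those of mock Tak-1, and the order of the groups in wounded plants was the reverse. The difference was 0.82 ± 0.11.

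Mp7g10400 held 128, 120.3 and 122 CPM in mock Tak-1 and 60.5, 61.3 and 56.95 CPM after wounding, and 132, 133 and 126 CPM in the mock mutant and 119, 122 and 99.98 CPM in the wounded mutant. All wounded mutant libraries were below the mock mutant libraries but far above wounded Tak-1. Tak-1 kept 48.2% of its mock mean and the mutant 87.1%, a difference of responses of 0.85 ± 0.10. Mp1g06380 held 94.2, 78.6 and 116 CPM in mock Tak-1 and 53.1, 36.9 and 41.9 CPM after wounding, and 143, 129 and 138 CPM in the mock mutant and 115, 108 and 94.5 CPM in the wounded mutant. It is the only member called higher in the mock mutant, and all 3 of its mock mutant libraries exceeded all mock Tak-1 libraries. MpFRO2 showed the same separation without being called. The mock difference was 0.50 and the wounded difference 1.26. Its call in mock plants was lost under upper-quartile scaling and with library totals, and without 1 library it held only without mock Tak-1 library 3 or wounded Tak-1 library 1 or 2.

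The members with the largest differences of responses included the named MpCAT4, MpPOD92 and MpLOX12, and Mp1g29040 and Mp6g12240, which carry no gene name in the table used. Mp1g29040 held 6.52, 4.99 and 6.39 CPM in mock Tak-1 and 0.923, 0.793 and 0.787 CPM after wounding, and 4.82, 3.71 and 6.399 CPM in the mock mutant and 3.43, 2.299 and 2.27 CPM in the wounded mutant. Wounded Tak-1 was under 1 CPM in every library, while all wounded mutant libraries were above 2 CPM. It kept 14.0% of the mock mean in Tak-1, the lowest share in the set, and 53.5% in the mutant, a difference of responses of 1.49 ± 0.29. Mp6g12240 held 11.4, 6.61 and 10.7 CPM in mock Tak-1 and 2.27, 2.54 and 2.80 CPM after wounding, and 9.47, 7.43 and 11.4 CPM in the mock mutant and 10.02, 5.28 and 5.68 CPM in the wounded mutant. Wounded mutant library 1 was at the level of mock plants, and libraries A and B were below all mock libraries. The difference was 1.33 ± 0.40.

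Some members rested on single libraries. In 6 members a library of some group was more than 2-fold from the next, among them MpCAT4, Mp5g19810, Mp8g02300, MpMCA-IIc and Mp8g11990. Mp5g19810 is the clearest case, with 15.2, 2.52 and 2.498 CPM in mock Tak-1 and 3.59, 2.58 and 2.19 CPM after wounding, and 16.4, 3.14 and 2.75 CPM in the mock mutant and 3.50, 12.2 and 2.62 CPM in the wounded mutant. In 3 groups 1 library was several-fold above the other pair, and mock and wounded libraries overlapped in both genotypes. Its responses, -1.14 ± 0.86 and -0.26 ± 1.06, were each less than 2 SE from 0. Wounded mutant library 1 was the highest of its group in 35 of the 46 members (76.1%). It was so in 50.7% of the other 460 fallen genes and in 33.9% of all tested genes. Mock Tak-1 library 2 was the lowest of its group in 30 members (65.2%). It was so in 48.7% of the other 460 fallen genes and in 31.1% of all tested genes. Without wounded mutant library 1 the median mutant response of the set was -0.63 in place of -0.43, and it was the lowest of the medians without 1 library, whose highest was -0.35.

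The limits of the rule lay in a continuous range of values. Just inside the margin of 0.75 were Mp3g20530 (0.75 ± 0.30), Mp7g06170 (0.75 ± 0.11) and Mp1g06380 (0.75 ± 0.24). Just outside were Mp2g22790 (0.74 ± 0.17), MpDOXC20 (0.74 ± 0.45) and MpNPF9 (0.74 ± 0.43).

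Of the 13 gene lists compared with the set, 5 held members. Peroxidases had 7, cell wall enzymes and expansins 2, and P450 enzymes, phenylpropanoid and polyketide enzymes, and lipoxygenases with other jasmonate genes 1 each. The lists of transcription factors, kinases, transporters, hormone genes, and dirigent proteins with laccases and polyphenol oxidases held 0 members, and 8, 5, 10, 4 and 1 of their genes met the other conditions. The transporter list holds ABC, NPF and similar families but not those of MpXIP and MpHA18, which are in no list. In the list of histone and DNA replication genes, 12 met the other conditions and 0 were members. Since 9.09% of all genes that met the other conditions were members, lists of this size would hold about 1 member or none at that share, and nothing is read from a count of 0. Of 40 tested genes in the histone and replication list, 26 were called lower in Tak-1 and 26 in the mutant, with median responses of -0.69 and -0.55, and 0 were called in the difference of responses, where 0.692% of all genes were called higher and 2.59% lower.

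Markers of other cell types moved with wounding too, and their part in the falls was not tested. Of 3 gemma cup markers, 2 were found. Their summed level went from between 63.3 and 106 CPM in mock Tak-1 to between 30.7 and 58.3 CPM after wounding. In the mutant it went from between 50.8 and 73.2 CPM to between 28.9 and 38.4 CPM. Only MpKAR was called lower, with responses of -1.19 ± 0.15 in Tak-1 and -1.06 ± 0.10 in the mutant. MpGCAM1 was not called in either genotype (-0.45 ± 0.61 and -0.02 ± 1.10). Of 4 apical notch markers, 2 were found, with sums of 441 to 469 and then 308 to 317 CPM in Tak-1, and 342 to 380.4 and then 251 to 268 CPM in the mutant. They moved in opposite directions, with Tak-1 responses of 1.77 ± 0.12 for MpCLE2 and -0.70 ± 0.04 for MpCLV1. All 5 oil body markers were found, with sums of 77.8 to 96.6 and 172 to 185 CPM in Tak-1, and 68.6 to 86.9 and 97.7 to 119 CPM in the mutant. The sums rose through MpC1HDZ alone. MpABCG1 (-1.14 ± 0.16) and MpR2R3-MYB2 (-0.79 ± 0.10) were called lower in Tak-1. MpERF13 (-0.71 ± 0.22) and MpSYP12B (-0.28 ± 0.12) also had negative Tak-1 responses but were not called. The only thallus marker found, MpRBCS, stayed between 132 and 204 CPM in all libraries. The only air pore marker found of 2, MpNOP1, rose from between 98.6 and 104 CPM to between 196 and 220 CPM in Tak-1, and from between 92.7 and 104 CPM to between 152 and 172 CPM in the mutant. Its responses were 1.03 ± 0.06 and 0.73 ± 0.07, and the difference of -0.31 ± 0.09 passed the test (edgeR adjusted p = 0.0349) but was lost in 7 of 12 fits without 1 library. The oil body marker MpC1HDZ also rose less in the mutant, with responses of 1.62 ± 0.11 and 0.98 ± 0.14 (edgeR adjusted p of the difference 0.0391, lost in 8 of 12 such fits). Of 13 rhizoid markers, 10 were found. All 10 were genes of the MpCSLD family, and RSL1, RSL2 and RSL3 were not found by symbol. The sum is therefore that of the MpCSLD genes and is not read as a level of rhizoid cells. In Tak-1 4 were called higher and 1 lower, where 30.0% and 25.0% of all tested genes were, and 0 were called in the difference. Their summed level was 1557 to 1619 CPM in mock Tak-1 and 1708 to 2058 CPM after wounding. In the mutant it was 1485 to 1774 and 1823 to 2054 CPM. Of 6 antheridium markers, 5 were found, with sums between 55.2 and 66.9 CPM in all libraries. Only 3 of them were tested, since MpPRM and MpLC7 did not pass the low-count filter. Among the 3, MpDUO1 was called higher in Tak-1 (1.95 ± 0.08, edgeR adjusted p = 4.29e-07), and its mutant response was 1.85 ± 0.11. Of the markers found, 0 were at 0 in all libraries, but MpPRM had a Tak-1 response of 0 with an SE of 0.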

How the data were processed

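Gene transcripts were measured by RNA sequencing of 12 libraries, 3 in each of 4 groups. The authors deposited raw counts, whole numbers per gene and library that are not normalised as far as the values show. Per the submitters' processing notes, the tools were Trim Galore, HISAT2, HTSeq and edgeR, with no version or setting recorded. Build, annotation and strandedness: not given in the sources used here. Every column of values was used.

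The set was found on CPM of library totals (19121900 to 30821817 counts). Log2 values are given with first-order standard errors from 3 libraries a group, which measure the spread between separate plant pools. Across all genes, edgeR 4.0.16 in R 4.3.3 was used (filterByExpr, TMM scaling, quasi-likelihood fit of 12 libraries with 1 mean per group; residual degrees of freedom 8, prior 4.46; common coefficient of biological variation 0.121), with 5 two-sided contrasts and Benjamini-Hochberg adjustment over 13726 genes. DESeq2 1.42.0, other scalings and pseudocounts, no low-count filter, a replicate block and leaving out libraries were alternatives. On simulated counts with 200 changed genes (13551 genes in the fit), the test of the difference of responses recovered 93.5% of 2-fold and 100% of 4-fold changes, with 5.37% false calls. Recovery was not tested at the spread of single members, such as MpLOX12, with an SD of 3.06 CPM on a mean of 11.2 CPM in mock Tak-1. A missing call in a member is therefore not read as the absence of a 2-fold difference. Floors of 3 counts cover counting error only. Symbols came from the reference table of assembly MpTak2_v7.1, to which 17641 of 20574 IDs (99.1% of counts) matched. Tables were handled with Python 3.11.15 and pandas 2.3.3.

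The members and lists were chosen with earlier results of these data known. Genes were named if they had a symbol (up to 20), were among the 6 largest differences of responses or the 4 highest mock Tak-1 levels, or were the 3 nearest to the margin on either side. Other genes named were chosen after their values were seen. Values of 1 gene in the set are not reported here. Sequences and promoters were not analysed here.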

Additional observations from a re-analysis of the deposited data

Results flagged for a closer look

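The responses of the genotypes differed, by edgeR's quasi-likelihood test of the difference itself (Benjamini-Hochberg adjusted p under 0.05 over 13726 genes), in 9 of the 46 members, in each of which the fall was smaller in the mutant, where 0.692% of all tested genes were called in this direction and 2.59% in the other. Without 1 library the count was 6 to 14, and by DESeq2 it was 19. The members were chosen on this difference, so the count is a description. Groups of 3 libraries are too small for a test of single outlying libraries.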

How the results depend on the processing

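The rule gave 46 genes as stated. It gave 28 under TMM scaling, 39 under upper-quartile scaling, 52 and 35 with pseudocounts of 0.25 and 1, 50 with medians of libraries and 90 with no level limit. Leaving out 1 library gave 36 to 77 genes, the highest without wounded Tak-1 library 3, and 19 of the 46 members were kept in all 12 of these settings, 5 of them peroxidases. Without both unnumbered libraries, a setting added after seeing the data for the rule, it gave 77, of which 45 were members. Under all settings the difference of responses remained above 0 for the members picked by the naming rule, but all members were chosen on this difference. Mp5g19810 was not picked by that rule. Without mock Tak-1 library 1 its mock Tak-1 libraries held 2.52 and 2.498 CPM. Against 3.59, 2.58 and 2.19 CPM after wounding, it then showed no fall in Tak-1. The difference was called in 451 genes (356 lower, 95 higher), in 457 under upper-quartile scaling (293 and 164), in 536 with library totals (276 and 260) and in 799 by DESeq2, in 261 to 480 without 1 library and in 252 without both unnumbered libraries. The genotypes differed in mock plants in 620 genes (1056 by DESeq2, 138 to 727 without 1 library, 304 without both unnumbered) and in wounded plants in 1996 (1153 to 2287 without 1 library, 876 without both unnumbered). Wounding changed 7019 genes in the mutant and 4667 without both unnumbered libraries. With a replicate block over the 10 numbered libraries, the counts were 219 for the difference, 190 in mock, 704 in wounded plants and 4104 for wounding in the mutant. The replicate numbers did not pair the samples (same-number correlations of deviations -0.17 to 0.25, other pairs -0.31 to 0.35), so libraries share only a number. Of the members, 17 were called lower in the mutant, 8 without both unnumbered libraries and 7 with the block. Both of these settings leave 1 wounded mutant library, library 1, which was the highest of its group in 35 of the 46 members, and their tests assume that it varies like the libraries of the other groups. The cause of these changes was not tested, apart from the fewer samples in some settings. TMM scaling moved the median response of all tested genes in Tak-1 from -0.12 to 0.01, and that of the members from -1.48 to -1.35. The spread between libraries limits the single members, such as Mp5g19810 with 332, 50 and 77 counts in mock Tak-1. Levels were also low, with 18 members under 10 CPM in mock Tak-1.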
